A study of Rattus norvegicus with 36 samples.

Results

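The nuclear-encoded subunits of mitochondrial oxidative phosphorylation were followed in rat dorsal root ganglia, which hold the cell bodies of sensory neurons, after ligation of the L5 spinal nerve. Members were all probe sets with a single annotated gene symbol beginning with Nduf, Sdha to Sdhd, Uqcr, Cox4 to Cox8 or Atp5. A probe set is the group of short oligonucleotides by which an Affymetrix array measures one transcript. The rule found 167 probe sets of 85 genes among 26202 probe sets other than controls, of which 18178 carried 1 symbol for 10969 genes. A further 8 probe sets that carried several symbols, at least 1 of them matching, were left out. The rule used names and no measured value.

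Total RNA came from 6 pools of ganglia. The L5 pools at 28 and 50 days held the L5 ganglia of rats with spinal nerve ligation at L5, a model of neuropathic pain. The L4 pools at 28 and 50 days held the neighbouring L4 ganglia of such rats, whose own nerve was not ligated, and the sham pools at 28 and 50 days held L4 and L5 ganglia of sham-operated rats together. Normal differences between L4 and L5 ganglia are therefore part of each comparison. The labels that give a number state 30 rats per pool, and strain, sex and age are not given in the sources used here. Each pool was hybridised to 2 arrays of each of 3 chip types (36 arrays), and these technical arrays were averaged. Pooling left 1 biological sample per condition and day, so the 2 days of a condition stood as its replicates. The fit had a day term, so its spread is how far differences between conditions changed from day to day, over all 6 pools. A p-value therefore does not measure the spread between animals. In bulk RNA, fewer cells of a type and less RNA per cell cannot be told apart.

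Oxidative phosphorylation passes electrons from NADH through complex I, and from succinate through complex II, to ubiquinone, then through complex III and cytochrome c to complex IV, which reduces oxygen. Complexes I, III and IV pump protons across the inner mitochondrial membrane, and ATP synthase uses the gradient to make ATP. Sensory neurons depend on this supply for ion pumping and for transport along very long axons. Several complex IV subunits exist as a ubiquitous form and a form of heart and skeletal muscle.

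The tissue carried its label's markers: of 16 general neuron markers, 15 were tested and their summed signal was 55041 and 63165 in the sham pools (28 and 50 days), 54879 and 59099 in the L4 pools and 47428 and 54502 in the L5 pools. The number of pools, 1 per condition and day, limits the precision of all values. Correlation between the technical arrays of a pool was r = 0.882 to 0.958, and no 2 arrays were identical. On chip B, the title and the description of 1 sham array give different days, and the title was followed.

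In L5 ganglia most probe sets of the subunits were lower than in sham, but no decrease passed the test. The difference, on the log2 scale and averaged over the days, had a median of -0.20 over all 167 probe sets, and 114 of them were lower, against a median of 0.08 over all 26202 probe sets. The member median was -0.17 at 28 days and -0.16 at 50 days. For the brightest probe set of each of the 85 genes it was -0.24, with 65 genes lower. Both L5 pools lay below both sham pools in 67 of the 167 probe sets (40.1%), where 16.0% of all probe sets did so, and above both in 20 (11.98%), where 21.0% of all did so.

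Of the 167 probe sets, 145 (83 genes) passed the filter on dim signals and were tested with limma. Against sham, 1 was called in L5 at an adjusted p under 0.05, the muscle-type complex IV subunit Cox6a2, which rose. Over all tested probe sets 0.235% were called higher and 0.547% lower. None of the 145 was called lower in that comparison, and at an unadjusted p under 0.05 there were 33 lower and 4 higher, beside 9.47% and 7.42% of all tested probe sets. The standard errors of the members ran from 0.17 to 0.42 with 2 residual degrees of freedom.

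Every array had been scaled to a common trimmed mean, so these differences are relative to the average signal of an array. Scaling to hybridisation controls instead gave a median of -0.30 over all probe sets and -0.63 over members, and 57 members were called, all lower, beside 18.2% of all tested probe sets. With median centring, 10 members were called, 9 of them lower, beside 2.7% of all tested probe sets. With quantile normalization none was called, beside 0.267%. The member median was under that of all probe sets by 0.19 to 0.34 in these 3 scalings.

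**Figure D1:**
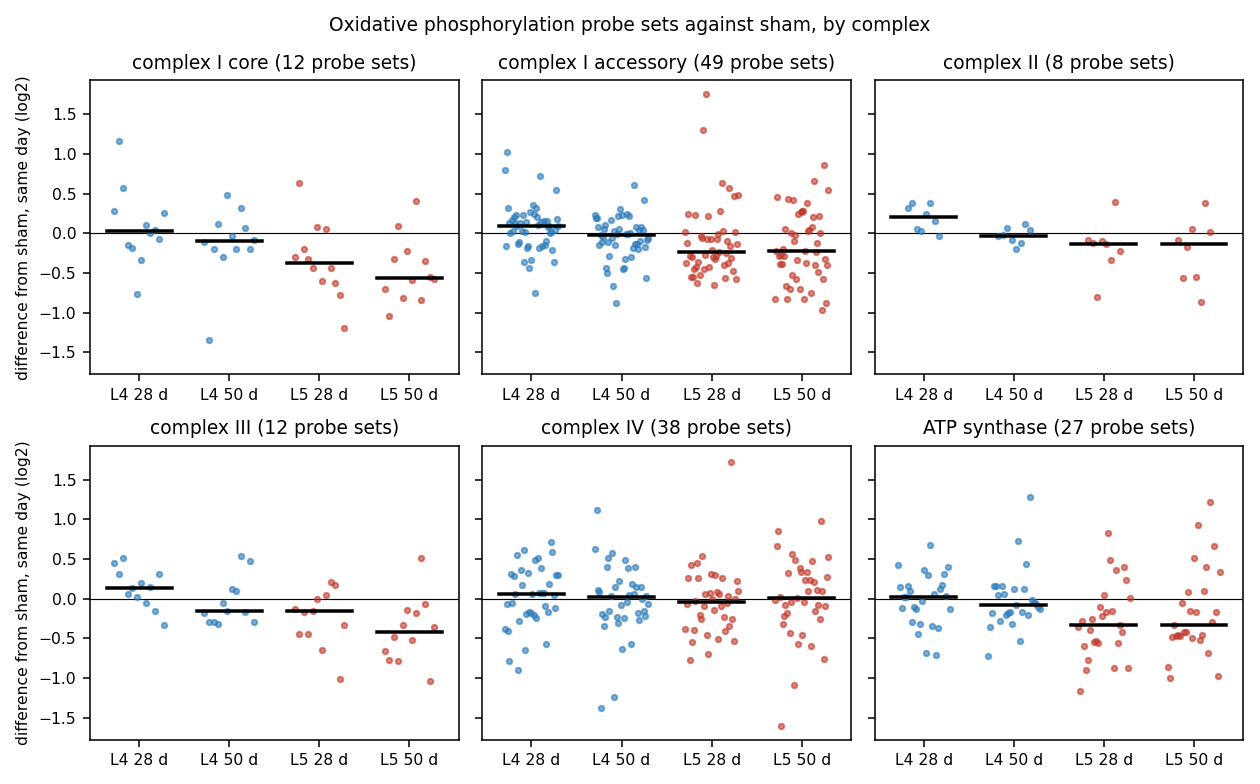
Each point is 1 probe set, plotted as the log2 difference of an L4 or L5 pool from the sham pool of the same day, in a panel for each complex, and black lines are medians. L5 medians lie below 0 at both days except in complex IV, where they are -0.04 and 0.01, and L4 medians lie between -0.16 and 0.20, both above and below 0.

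Brightness of the probe set went with the difference. Among members with a mean signal under 100 the median of L5 against sham was 0.15 (39 probe sets), beside 0.13 for the other probe sets of that class. From 100 to 300 the medians were -0.20 for members and 0.05 for the others, from 300 to 1000 they were -0.28 and -0.09, and over 1000 they were -0.29 and -0.13. Thus bright probe sets were lower in L5 in general, and from 100 upward the member medians were lower than those of the others. Among the 89 members with a signal of 300 or more, both L5 pools lay below both sham pools in 55.1%, beside 33.4% of the other 3921. The 16.0% set beside the complexes below is of all probe sets, dim ones included, and was 20.5% over all tested ones.

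**Figure D2:**
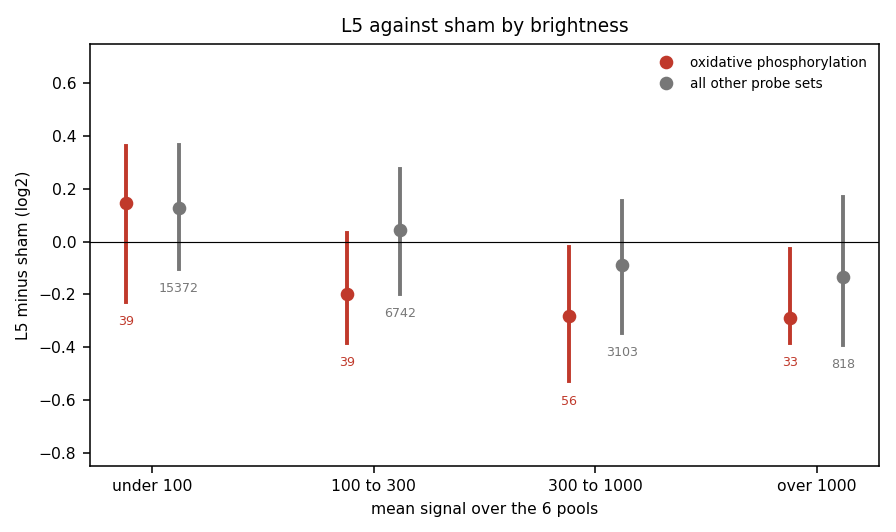
Points are medians and bars the interquartile range of the log2 difference between L5 and sham, for members and for all other probe sets, in 4 classes of mean signal, with the number of probe sets printed under each bar. The member median is 0.15 in the dimmest class and between -0.20 and -0.29 in the other classes.

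Complex I takes electrons from NADH through its flavin and iron-sulfur core subunits. Its core had the lowest median among the 6 groups of subunits, -0.49 over 12 probe sets, of which 11 were lower. Both L5 pools lay below both sham pools in 7 of the 12 (58.3%), where 16.0% of all probe sets did so. For all 6 core genes measured (Ndufs1, Ndufs3, Ndufs7, Ndufs8, Ndufv1 and Ndufv2) the brightest probe set was lower at both days. None was called.

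Ndufs3, an iron-sulfur fragment subunit needed early in assembly of the core, had array signals of 237 and 293 in the sham pool at 28 days and 311 and 307 at 50 days. In L4 they were 343 and 296, then 279 and 302, and in L5 123 and 86.7, then 184 and 221. All 4 L5 arrays lay below all 4 sham arrays, and the 28-day L5 pool was the lowest. The difference was -0.88 ± 0.24 (standard error, n = 2 pools per condition, adjusted p = 0.113 by limma), with -1.20 at 28 days and -0.57 at 50 days.

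Ndufs1, the largest iron-sulfur subunit, had mean signals of 338 and 292 in sham at 28 and 50 days, 316 and 252 in L4 and 187 and 193 in L5. The L5 pools did not overlap the sham pools, and the difference was -0.66 ± 0.19 (adjusted p = 0.129 by limma). Ndufs7 and Ndufs8, which carry the last iron-sulfur clusters before ubiquinone, stood at -0.59 ± 0.19 and -0.63 ± 0.19. Ndufv1, which holds the flavin and oxidises NADH, stood at -0.64 ± 0.20, and its partner Ndufv2 at -0.26 ± 0.21. For Ndufv2 the 2 arrays of a pool were far apart, as in sham at 50 days with 673 and 1411, and on the first array of each pool alone the difference was 0.30.

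The accessory subunits surround the core of complex I and stabilise it. Their median was -0.20 over 49 probe sets of 27 genes, with 33 lower. In 21 (42.9%) both L5 pools lay below both sham pools, where 16.0% of all probe sets did so. The 4 with the lowest p were Ndufb8 (-0.74 ± 0.20 and, on a different probe set, -0.62 ± 0.17), Ndufb7 (-0.73 ± 0.19) and Ndufa8 (-0.72 ± 0.25). Ndufb8 had signals of 965 and 1233 in sham, 1139.8 and 909.9 in L4 and 617 and 695 in L5 on its probe set of lowest p. Both L5 pools of Ndufb8 were lower than any other pool, with an adjusted p of 0.107 by limma. The highest differences were those of Ndufa6 (0.67 ± 0.25) and Ndufc2 (0.51 ± 0.27), each on a probe set that was not the brightest of its gene.

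**Figure D3:**
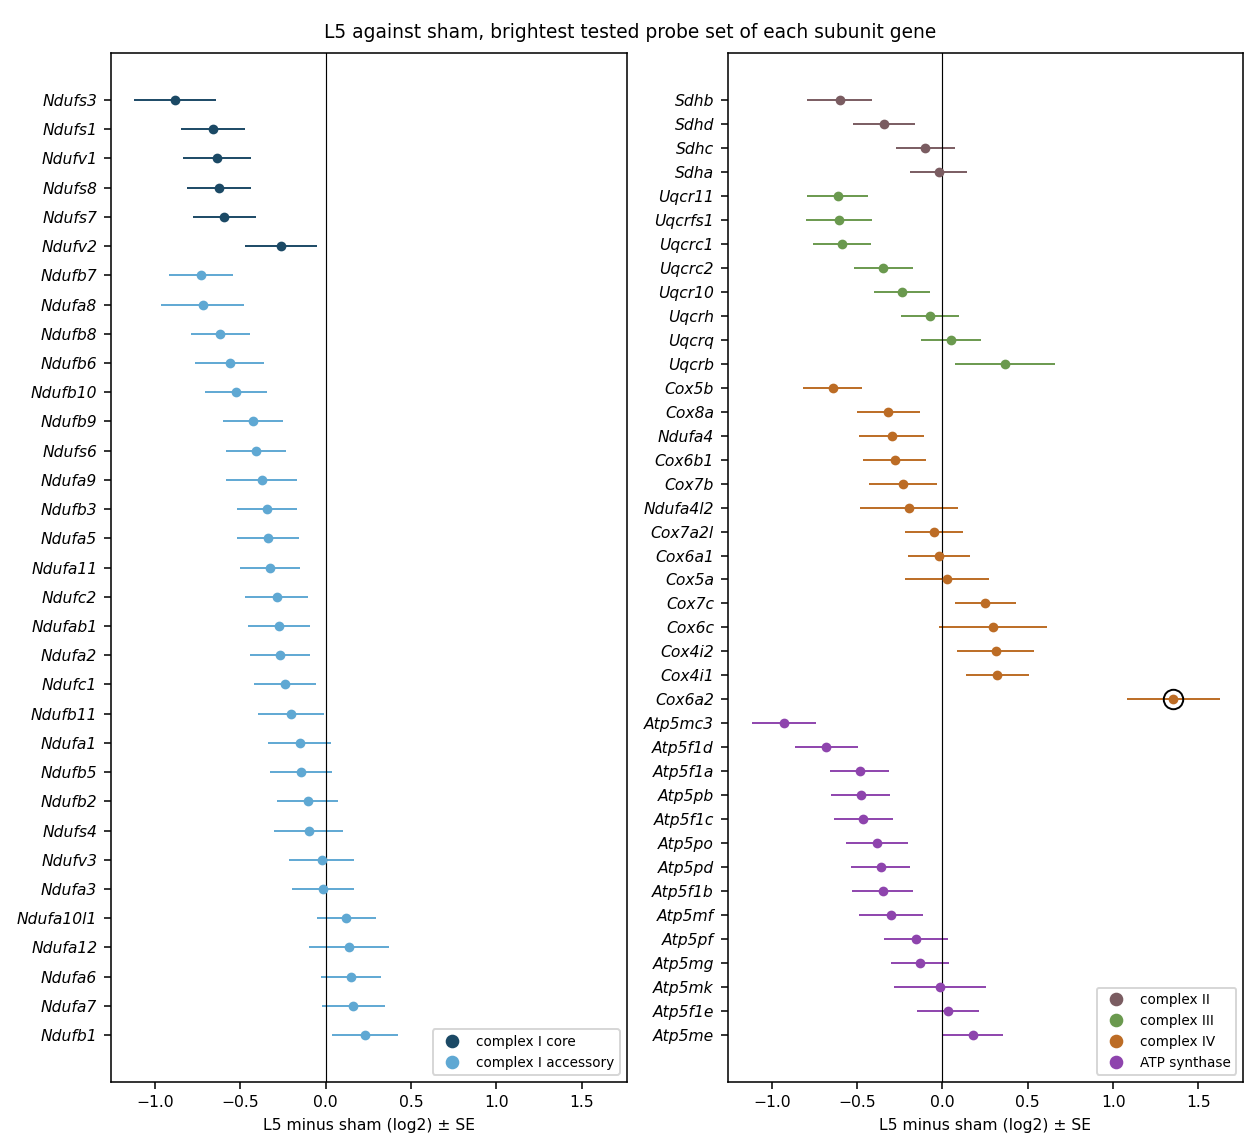
Points are the log2 difference between L5 and sham for the brightest probe set of each tested subunit gene, with the standard error of the limma fit (n = 2 pools per condition), coloured by complex, and a ring marks an adjusted p under 0.05. All complex I core genes lie left of 0, complex IV genes lie on both sides, and Cox6a2 at 1.35 is the only ringed gene.

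Complex II is succinate dehydrogenase, the enzyme shared with the tricarboxylic acid cycle. Its median was -0.22 over 8 probe sets, with 7 lower. Sdhb, the iron-sulfur subunit, had signals of 759 and 931 in sham, 992 and 849 in L4 and 595 and 500.5 in L5 (28 and 50 days). Both L5 pools lay below the others, at -0.60 ± 0.19 (adjusted p = 0.158 by limma). Sdhd, a membrane anchor, stood at -0.34 ± 0.18. The other anchor, Sdhc, gave -0.10 ± 0.17 on its brightest probe set and 0.39 ± 0.19 on a dimmer one. Sdha, the flavin subunit, gave -0.02 ± 0.17 on its brightest probe set and -0.49 ± 0.21 and -0.34 ± 0.19 on the others.

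Complex III passes electrons from ubiquinol to cytochrome c. Its median was -0.34 over 12 probe sets, of which 10 were lower. In 7 (58.3%) both L5 pools lay below both sham pools, where 16.0% of all probe sets did so. Uqcrfs1, the Rieske iron-sulfur protein, had signals of 741 and 780 in sham, 914 and 635 in L4 and 539 and 452 in L5, so the L5 pools were the lowest 2. Its difference was -0.60 ± 0.19 (adjusted p = 0.154 by limma). Uqcr11, a small subunit, stood at -0.61 ± 0.18. The core proteins Uqcrc1 and Uqcrc2 stood at -0.59 ± 0.17 and -0.35 ± 0.17. For Uqcrc1 the L5 signals of 284 and 371 were below those of sham (452 and 541) and of L4 (522 and 589.8). For Uqcrc2 the L4 pools gave 766 and 561 on its brightest probe set, close to the 744 and 539 of L5, and L4 against sham was -0.31. A different Uqcrc2 probe set was under the filter on dim signals in the main fit, with L5 differences of -1.02 against sham and -1.42 against L4. When scaled to hybridisation controls it stood at -1.28 and -1.93 and was called, beside 18.2% and 42.8% of all tested probe sets. The medians of all probe sets in that scaling were -0.30 and -0.45. The highest differences were Uqcrb at 0.37 ± 0.29 and Uqcrq at 0.05 ± 0.18.

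Complex IV, cytochrome c oxidase, had a median of -0.05 over 38 probe sets, with 22 lower. Ndufa4 and Ndufa4l2 were counted in this group and not in complex I. Its median signal was 179, beside 256 in the complex I core, 437 in the accessory subunits, 587 in complex II and 589 in complex III. Of the 38 probe sets, 29 passed the filter on dim signals, and their median was -0.08. Both L5 pools lay below both sham pools in 11 of the 38 (28.9%) and above both in 8 (21.1%), where 16.0% and 21.0% of all probe sets did so. The difference between complex IV and the other groups was not tested. Under quantile normalization, median centring and scaling to hybridisation controls the complex IV median was -0.04, -0.23 and -0.53, and that of the complex I core -0.51, -0.64 and -0.92.

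Cox5b, which binds zinc at the matrix side, had the lowest difference of the brightest complex IV probe sets. Its arrays gave 1480.4 and 1414 in sham at 28 days, 1351 and 1507 at 50 days, 1632 and 1371 and then 1284 and 1289 in L4, and 1008 and 987 and then 852 and 830.4 in L5. All 4 L5 arrays lay below all the others, and the difference was -0.64 ± 0.17 (adjusted p = 0.107 by limma). Its neighbour Cox5a stood at 0.03 ± 0.25.

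Cox4i1, the ubiquitous form of the largest nuclear-encoded subunit, gave 5229.8 and 5149 in sham, 4619 and 4876 in L4 and 6466 and 6481 in L5 on its brightest probe set. Both L5 pools were above the others, at 0.32 ± 0.19 (adjusted p = 0.405 by limma), but this turned to -0.19 with arrays scaled to hybridisation controls. The 2 other Cox4i1 probe sets stood at -0.31 ± 0.21 and -0.59 ± 0.32, so the gene has no single direction here. Cox4i2, the form known from lung and from cells low in oxygen, stood at 0.31 ± 0.23, and at -0.18 when scaled to hybridisation controls.

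The muscle form of subunit VIa, Cox6a2, was the one member called against sham. Its arrays gave 104 and 27.9 in sham at 28 days, 63.0 and 132 at 50 days, 71.8 and 138 and then 127 and 84.4 in L4, and 209 and 222 and then 213 and 175 in L5. All 4 L5 arrays were above all 8 others, and the 2 arrays of each sham and L4 pool were far apart. Cox6a2 rose by 1.35 ± 0.27 on the log2 scale (2.55-fold with the pseudocount included, n = 2 pools per condition, adjusted p = 0.0464 by limma). The rise was 1.73 at 28 days and 0.98 at 50 days. The call was lost without the 28-day sham pool (1.02) and with quantile normalization (1.27, adjusted p = 0.0966 by limma). Scaling to hybridisation controls lost it as well (0.88, adjusted p = 0.0551 by limma). It was also lost with no filter on dim probe sets, a pseudocount of 1, no intensity trend or no day term. Neither the first nor the second array alone gave the call. A different Cox6a2 probe set gave 94.0 and 90.3 in sham, 107 and 141 in L4 and 143 and 139 in L5, a difference of 0.55 ± 0.26 (adjusted p = 0.303 by limma). One more, with a mean signal of 6.23, was too dim to test.

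The ubiquitous partner Cox6a1 gave -0.02 ± 0.18 on its brightest probe set and -0.63 ± 0.21 on another, whose signals were 1160.2 and 1428 in sham, 1457 and 1168 in L4 and 711 and 959 in L5. Another muscle form on the arrays, Cox8b, was too dim to test on both its probe sets, with mean signals of 28.3 and 19.6, while its ubiquitous partner Cox8a stood at -0.32 ± 0.19. Cox6b1 stood at -0.28 ± 0.18, and the testis form Cox6b2 was too dim to test.

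Skeletal muscle transcripts were measured beside Cox6a2. Of 19 listed muscle markers 15 were tested, 14 were higher in L5 than in sham and 1 was called, Tpm2 (1.16 ± 0.21, adjusted p = 0.0449 by limma), the beta tropomyosin of muscle filaments. Next in p were Actn3 (1.22 ± 0.27) and Tnnc2 (1.28 ± 0.37), both of fast fibres. The list's median was 1.68 at 28 days and 0.23 at 50 days, where Cox6a2 had 1.73 and 0.98. Averaged over the days it was 1.00 with 1 lower, and 0.55 with 4 lower when scaled to hybridisation controls. Its summed signal was 1609.8 and 2872 in sham (28 and 50 days), 2493 and 2777 in L4 and 4664 and 3318 in L5. The part of muscle RNA in the Cox6a2 result was not tested.

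**Figure D4:**
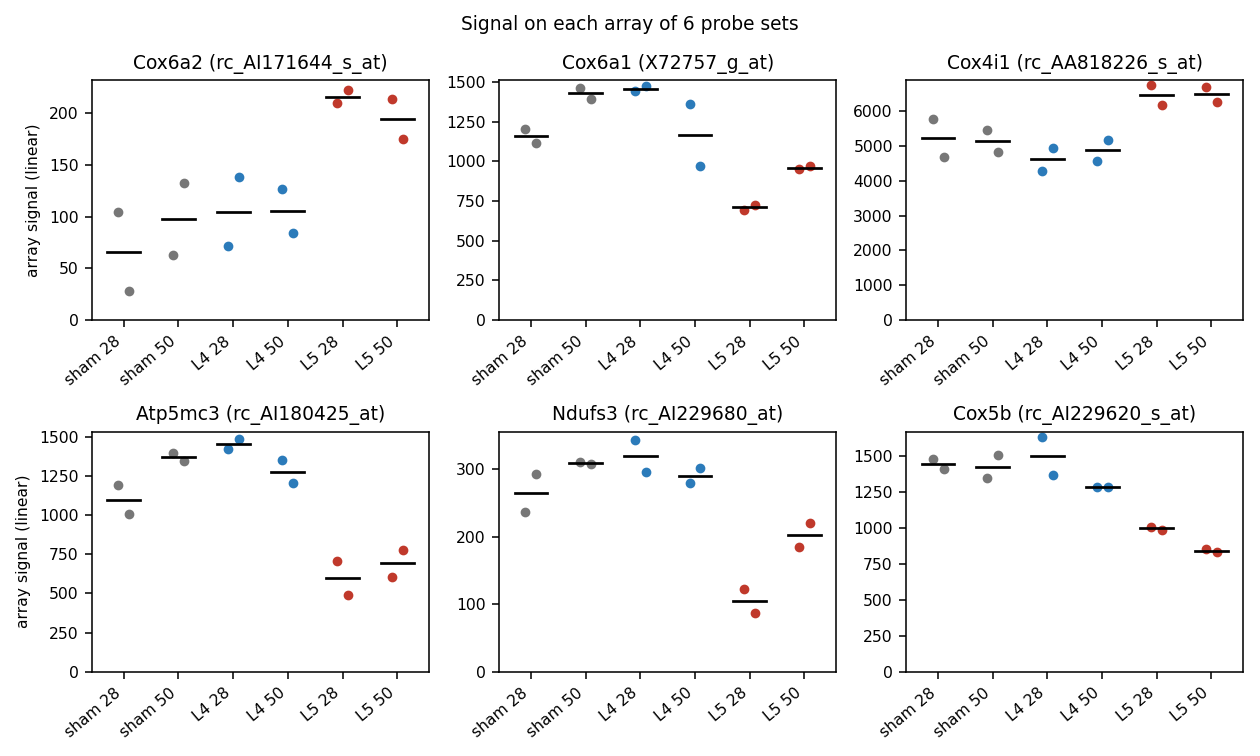
Array signals on a linear scale from 0 for 6 probe sets, with 2 points for the 2 arrays of each pool and a line at their mean, for sham, L4 and L5 at 28 and 50 days. Cox6a2 and Cox4i1 are highest in the L5 pools, and this Cox6a1 probe set, Atp5mc3, Ndufs3 and Cox5b are lowest there.

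ATP synthase consists of a catalytic head, a peripheral stalk that holds it still and a membrane part with the rotor ring. Its median was -0.35 over 27 probe sets, with 20 lower. In 14 of the 27 both L5 pools lay below both sham pools, where 16.0% of all probe sets did so. By structure, the median was -0.35 in the head, -0.43 in the peripheral stalk, where 9 of 9 probe sets were lower, and -0.13 in the membrane part (9 probe sets each). The stalk probe sets were also lower in L4 than in sham, 9 of 9, with a median of -0.15. The 9 stalk probe sets come from 4 genes, and several share a target.

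Atp5mc3 encodes one of the forms of the rotor ring subunit c. Its arrays gave 1194 and 1007 in sham at 28 days, 1397 and 1349.8 at 50 days, 1424 and 1486 and then 1353 and 1208 in L4, and 707 and 490.1 and then 607 and 777 in L5. All L5 arrays lay below all others. Against L4 it fell by 1.08 ± 0.19 (adjusted p = 0.0315 by limma), and it was the one member called in that comparison. Against sham it stood at -0.93 ± 0.19 (adjusted p = 0.0538). The call against L4 was lost with quantile normalization, no filter on dim probe sets, no intensity trend or no day term. It was also lost with the first or the second array alone and without the 28-day L4 pool (-0.85).

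In the head, the alpha, beta and gamma subunits Atp5f1a, Atp5f1b and Atp5f1c stood at -0.48 ± 0.17, -0.35 ± 0.18 and -0.46 ± 0.17, and the central stalk subunit Atp5f1d at -0.68 ± 0.19. Atp5f1a, for example, gave 1096 and 1053 in sham, 1023 and 1095 in L4 and 745 and 785 in L5, with no overlap of L5 with the other pools. The epsilon subunit Atp5f1e went the other way, and none of its tested probe sets was lower. Its dimmer ones gave 0.88 ± 0.26 and 0.53 ± 0.20. In the peripheral stalk Atp5po, the oligomycin sensitivity subunit, had differences of -1.08 ± 0.23, -0.62 ± 0.17 and -0.38 ± 0.18 on its 3 probe sets. On the first of these, 1 array of the 28-day L5 pool read 33.1 and the other 314, so that pool's mean of 174 rests on discordant arrays.

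The group of assembly factors and the ATP synthase inhibitor, which are not subunits, had a median of -0.09 over 19 probe sets, with 10 lower. Atp5if1, which blocks ATP hydrolysis by the synthase, stood at -0.35 ± 0.17 on its brightest probe set. The complex I assembly factors Ndufaf3, Ndufaf4 and Ndufaf7 stood at -0.36 ± 0.22, 0.20 ± 0.25 and -0.20 ± 0.22. The 2 probe sets annotated to pseudogenes had a median of 0.19.

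Probe sets of 1 gene did not always agree. Among 41 genes with at least 2 tested probe sets, 16 had differences of opposite sign in L5 against sham: Atp5f1d, Atp5if1, Atp5mf, Atp5mg, Cox4i1, Cox7c, Cox8a, Ndufa4l2, Ndufaf3, Ndufb8, Ndufc2, Ndufs4, Ndufv1, Sdhaf2, Sdhaf3 and Sdhc. Ndufv1, for instance, gave -0.64 ± 0.20 and -0.48 ± 0.19 on 2 probe sets and 0.23 ± 0.20 on another, which the array design marks as incomplete. Some probe sets share sequence with related genes, and 38 genes had only 1 probe set and so no such check.

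The L4 ganglia, whose nerve was not ligated, had a member median of -0.01 against sham, with 87 of 167 lower, and none of the 145 was called by limma, with a lowest adjusted p of 0.999. At an unadjusted p under 0.05 there were 0 lower and 1 higher, beside 1.17% and 1.54% of all tested probe sets. Over all tested probe sets 0% were called higher and 0% lower. Both L4 pools lay below both sham pools in 16 members (9.6%), where 16.7% of all probe sets did so, and above both in 20 (11.98%), where 13.3% did so. The 2 days differed in sign, with a member median of 0.06 at 28 days and -0.06 at 50 days. With arrays scaled to hybridisation controls the member median was 0.15 beside 0.16 for all probe sets.

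Set against the L4 pools, L5 had a member median of -0.19, with 113 of 167 lower, and the median over all probe sets was 0.09. Both L5 pools lay below both L4 pools in 65 members (38.9%), where 16.5% of all probe sets did so, and above both in 22 (13.2%), where 24.5% did so. Atp5mc3 was the 1 member called lower and none was called higher, beside 1.02% and 0.274% of all tested probe sets. At an unadjusted p under 0.05 in limma, 35 members were lower and 5 higher, beside 10.9% and 8.44% of all tested probe sets. The complex medians were -0.43 for the complex I core, -0.23 for its accessory subunits, -0.30 for complex II, -0.36 for complex III, -0.02 for complex IV and -0.24 for ATP synthase. The comparisons with sham and with L4 share the L5 pools.

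Within a condition the days were set against each other for the subunits. The member median of 50 minus 28 days was -0.01 in sham, -0.11 in L4 and 0.05 in L5, each from 1 pool per day and with no test. None of 14 tested macrophage markers was called, and they had medians of 1.10 (28 days) and 0.12 (50 days) in L5 relative to sham, while the subunits stood at -0.17 and -0.16. The part of cell composition in the subunit values was not tested.

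Other genes of energy metabolism were mostly lower in L5 as well, and none of them was called. Enzymes of the tricarboxylic acid cycle and pyruvate dehydrogenase (18 of 21 listed genes tested) had a median of -0.50 with 14 lower. Those of lowest p were Dlat, the acetyltransferase core of pyruvate dehydrogenase, at -1.002 ± 0.21, the isocitrate dehydrogenase subunit Idh3b at -0.70 ± 0.18 and the pyruvate dehydrogenase subunit Pdhb at -0.68 ± 0.18. Dlat gave 614 and 621 in sham, 464 and 423 in L4 and 389 and 228 in L5 (adjusted p = 0.0592 by limma).

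The carriers that supply ATP synthase with phosphate and exchange ADP for ATP, with the outer membrane porins and mitochondrial creatine kinases, had a median of -0.40 with 7 of 8 lower. The phosphate carrier Slc25a3 stood at -0.78 ± 0.17, the ADP/ATP carrier Slc25a5 at -0.57 ± 0.17 and the creatine kinase Ckmt1 at -0.82 ± 0.25. Of electron carriers and complex III and IV genes outside the naming rule, 11 of 18 were tested, with a median of -0.18 and 10 lower. Cyc1, the cytochrome c1 of complex III, was at -0.72 ± 0.17 (adjusted p = 0.0803 by limma). The electron transfer flavoprotein subunits Etfa and Etfb were at -0.77 ± 0.20 and -0.58 ± 0.22.

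Glycolysis genes had a median of -0.24 with 12 of 14 lower. Aldoc was at -0.92 ± 0.21, Ldhb at -0.85 ± 0.22 and Pfkp at -0.60 ± 0.17. Regulators of mitochondrial biogenesis, 6 of 12 tested, had a median of 0.21 with 2 lower, but -0.25 with 6 lower when scaled to hybridisation controls. Polrmt, the mitochondrial RNA polymerase, was at -0.53 ± 0.22, the nuclear receptor Esrra at 0.35 ± 0.23 and the ETS factor subunit Gabpb1 at 0.36 ± 0.23. Neuron markers had a median of -0.27 with 14 of 15 lower, among them Rbfox3 (-0.97 ± 0.19), Isl1 (-0.78 ± 0.20) and Gng3 (-0.60 ± 0.19). The subunits stood at -0.20 over all 167 probe sets and at -0.26 over the brightest probe sets of the 83 tested genes. The part of neuronal RNA in the subunit values was not tested. Schwann and satellite glia markers had a median of -0.03 with 6 of 12 lower, and -0.49 with 10 lower when scaled to hybridisation controls, led by Ngfr (-0.59 ± 0.17), Mag (0.63 ± 0.21) and Cnp (0.57 ± 0.20). Macrophage markers had a median of 0.61 with 0 of 14 lower, led by Fcer1g (0.97 ± 0.21), Cd4 (1.12 ± 0.38) and Ctss (1.00 ± 0.35), none was called, and the median was 0.11 with 5 lower when scaled to hybridisation controls. Of 9 fat cell markers 3 were tested (Lep, Lpl and Pparg), with a median of 0.30, and -0.17 when scaled to hybridisation controls.

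**Figure D5:**
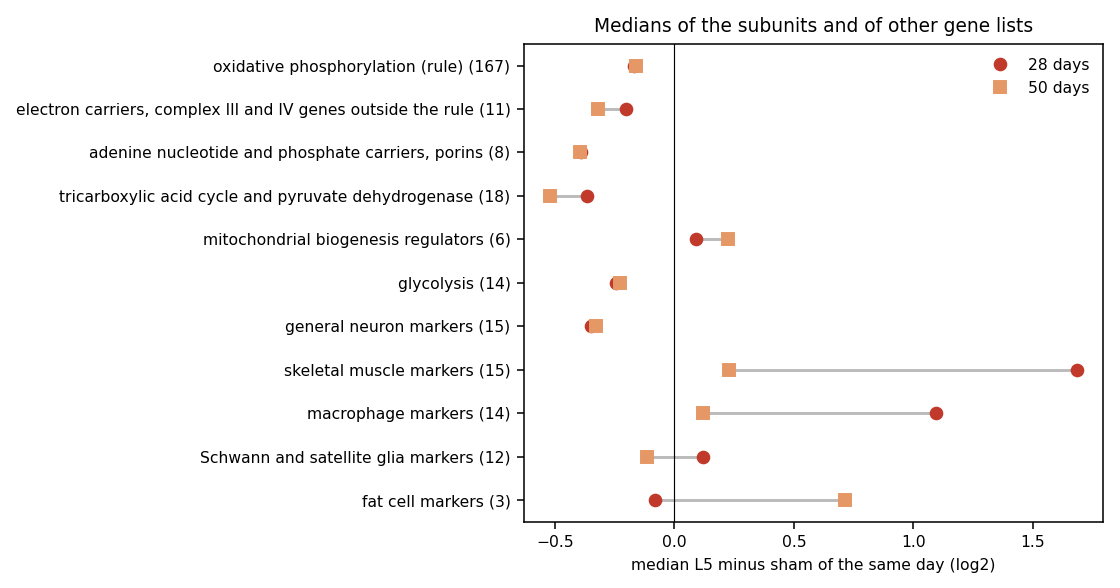
Medians of the log2 difference between L5 and the sham pool of the same day for the subunits and for 10 other gene lists, with circles for 28 days, squares for 50 days and the number of probe sets in brackets. The subunits are shown over all 167 probe sets, the other lists by the brightest tested probe set of each gene. The energy metabolism and neuron lists lie below 0 at both days, and the muscle and macrophage lists are at 1.68 and 1.10 at 28 days and at 0.23 and 0.12 at 50 days.

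The promoters of these genes were read as a description of what the members share. RefSeq windows of assembly GRCr8, from 250 bases before to 50 after the gene start, were found for 74 of the 85 genes. The letters AAGATGGCG, a core of YY1 sites, occurred in either orientation in 10 of the 74 (13.5%), in 3.22% of 9855 windows of genes on the arrays and in 1.73% of all 33469 windows. All 10 matches lay on the strand of the gene, and 8 of them began at base 255 to 287 of the window, just after the gene start (the first 250 bases of a window precede it). The letters include ATG, which the start codon also has. TGCGCATGC of NRF1 occurred in 4 of the 74 (5.41%) and in 2.44% of array genes. TCAAGGTCA of estrogen-related receptors occurred in 2 (2.70%) and in 0.264%. ACCGGAAGT of GABP and other ETS factors occurred in none and in 2.15%. A match of letters is not a bound site.

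The stretches below hold the YY1 letters, in capitals, with the bases around them. They are from the 6 of these 10 genes named above, 5′ to 3′ on the strand of the gene.
Ndufs7 (chr7:10110476-10110504, minus strand): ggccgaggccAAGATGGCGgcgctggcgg
Ndufb8 (chr1:253362897-253362925, minus strand): ggagaaggtgAAGATGGCGgcgtcccggg
Ndufs4 (chr2:47794892-47794920, minus strand): tgcccacaggAAGATGGCGgcggtctcaa
Ndufa6 (chr7:115750284-115750312, minus strand): cttccttagcAAGATGGCGgccgcggcca
Uqcrc1 (chr8:118468212-118468240, plus strand): cggaagttagAAGATGGCGgcgtccgcag
Atp5mf (chr12:14535461-14535484, plus strand, end of its window): acaggacttcAAGATGGCGtctat
In 5 of these the letters are followed by GC. On the brightest probe set the 10 genes with a match had a median of -0.34 in L5 against sham, with 9 lower, and the 64 with a window and no match had -0.24, with 50 lower.

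The 250 bases before the start of the 2 called genes are given, since one was called higher and the other lower. Capitals mark the letters of an estrogen-related receptor site, read on the opposite strand, in Atp5mc3, and none of the searched letters is in the Cox6a2 stretch.
Atp5mc3 (chr3:79220665-79220914, minus strand): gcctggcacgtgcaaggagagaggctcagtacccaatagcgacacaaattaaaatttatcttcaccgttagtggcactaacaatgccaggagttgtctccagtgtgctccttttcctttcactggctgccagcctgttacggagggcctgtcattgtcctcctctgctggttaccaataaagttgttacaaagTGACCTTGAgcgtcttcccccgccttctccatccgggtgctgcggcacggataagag
Cox6a2 (chr1:192219717-192219966, minus strand): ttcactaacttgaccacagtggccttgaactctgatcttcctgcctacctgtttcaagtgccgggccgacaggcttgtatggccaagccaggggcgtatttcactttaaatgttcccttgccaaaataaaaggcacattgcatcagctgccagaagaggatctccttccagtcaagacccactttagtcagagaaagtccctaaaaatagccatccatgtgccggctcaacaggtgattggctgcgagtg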

How the data were processed

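Per the submitters' processing notes MAS5 was used, and the deposited tables hold linear intensity values that the authors had brought, array by array, to a common trimmed mean (2% cut at each end) of about 150. No detection calls were used. Signals were transformed to log2(signal + pseudocount), with the 20th percentile of a chip type as pseudocount (12.8, 17.7 and 20.2 for chips A, B and C), which understates changes of dim genes. Tests were restricted to probe sets with a mean log2 value at or above the chip's 40th percentile, which left 15721 of 26202. The 2 arrays of a pool were averaged, and limma 3.58.1 in R 4.3.3 was fitted per chip with condition and day as terms (eBayes with an intensity trend), adjusted by Benjamini-Hochberg over the 3 chips at 0.05. The code was tested on simulated data. Medians over members use all probe sets, and lists use the brightest tested probe set of a gene. Names came from the platform annotation; all 85 symbols were in the RefSeq table. Named genes were the called members, the 4 lowest p and 2 highest differences of each group of subunits, core subunits and tissue isoforms in any case, the genes whose probe sets disagree, and the 3 lowest p of each other list. Members and lists were chosen with earlier results of these data known. Alternatives were other scalings, filters, pseudocounts, models and left-out pools. Medians of each complex and list under other scalings were added after seeing the data.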

Additional observations from a re-analysis of the deposited data

Results flagged for a closer look

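In 8 of the 49 tested named probe sets both L4 arrays lay on one side of both sham arrays at 28 days and on the other side at 50 days. The share of all probe sets with this pattern is not given here, so the 8 are not shown to exceed it. With 1 pool per condition and day the difference between the days was not tested. The pattern was higher at 28 days and lower at 50 days for Ndufs3 (0.26 and -0.085), Ndufb7 (0.090 and -0.50), Ndufb8 (0.24 and -0.44), Sdhd (0.24 and -0.20), Uqcrfs1 (0.31 and -0.30) and a probe set of Cox6a1 (0.33 and -0.31), on the log2 scale. It was lower at 28 days and higher at 50 days for Cox5a (-0.57 and 0.15) and a probe set of Ndufa6 (-0.36 and 0.42). In the first 6 the sham pool was higher at 50 than at 28 days, and in the other 2 it was lower.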

How the results depend on the processing

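The main values were 1 member called in L5 against sham, none in L4 against sham and 1 in L5 against L4, with member medians of -0.20, -0.01 and -0.19. For L5 against sham, none was called with quantile normalization, no filter on dim probe sets, a pseudocount of 1, the first or the second array alone, no intensity trend or no day term; 10 were called with median centring, 57 with scaling to hybridisation controls, 3 with a 60th percentile filter and 23 with 12 arrays and the pool as a random block, beside 2.70%, 18.2%, 1.46% and 7.08% of all tested probe sets. Without 1 pool the count was 1 to 9. The member median was -0.18 with quantile normalization, -0.34 with median centring, -0.63 with scaling to hybridisation controls, -0.23 with a pseudocount of 1, -0.15 with the 40th percentile as pseudocount, -0.15 with the second array alone and -0.24 with 1 probe set per gene. Without 1 pool it was -0.20 to -0.15. For L5 against L4, 0 were called with quantile normalization, no filter, 1 array alone, no trend or no day term; 13 were called with median centring, 100 with scaling to hybridisation controls, 2 with the 60th percentile filter and 24 with 12 arrays, beside 4.28%, 42.8%, 2.07% and 8.78% of all tested probe sets. Without 1 pool the count was 0 to 11. The member median was -0.34 with median centring and -0.84 with scaling to hybridisation controls. For L4 against sham no member was called under any of the 19 alternatives, and the median was 0.15 with scaling to hybridisation controls and -0.081 to 0.076 without 1 pool. The cause of these changes was not tested, and a left-out pool leaves 1 residual degree of freedom and a lone pool that is assumed to vary like the others. Among the left-out pools, the member counts of both L5 comparisons were highest without the 50-day L5 pool. The share of all tested probe sets called was also highest there. Whether the members exceeded that share was not tested. Uncalled differences of named probe sets changed sign in 33 of 950 values, in 14 of 49 probe sets. Leaving out the chip B sham array with conflicting labels kept 1 member called in L5 against sham and in L5 against L4. No paired analysis was possible because, per the titles or descriptions, the replicate numbers mark repeat arrays of 1 pool; the day term of the fit sets the conditions side by side within a day. Single arrays disagree most at low signal, which limits dim members.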
